A study of Mus musculus with 6 samples.

Results

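The 85 genes described here carry the symbols of cytosolic ribosomal proteins, out of 23420 genes in the deposited table of mouse humerus. They were chosen by symbol: a name that starts with Rpl or Rps followed by a digit, or Rplp0, Rplp1, Rplp2 or Rpsa, leaving out 10 S6 kinase rows, Rps19bp1 and 5 pseudogene rows. Of the 85, 33 are named for the small subunit and 52 for the large one. Poly(A) RNA had been sequenced from C57BL/6 humeri at postnatal day 6, after the marrow was flushed out, in 3 libraries from Tfam cKO mice and 3 from mice labelled Control. In the cKO mice Tfam, which packages mitochondrial DNA and helps to start its transcription, is deleted by Prx1-Cre. This driver is active in limb mesenchyme, so blood and endothelial cells left in the bone keep the gene. The sources used here do not say which alleles the controls carry or whether each library came from 1 animal. The p-values therefore set the group difference against the spread between these libraries, which may be technical.

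The ribosome reads mRNA on its small subunit and joins amino acids on its large subunit. Each subunit is built in the nucleolus on rRNA made by RNA polymerase I, and its proteins are needed in matched amounts. The mRNAs of these proteins are known for a terminal oligopyrimidine (TOP) tract, a cytosine at the start of the transcript followed by a run of pyrimidines, through which mTORC1 and the binding protein LARP1 control their translation and stability. Bone-forming cells secrete large amounts of collagen and depend on this machinery. In humans, inherited loss of 1 copy of several of these genes causes Diamond-Blackfan anaemia, often with skeletal malformations.

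The start regions of 12 members are printed to show what the TOP tract looks like in this family, 15 bases before the annotated start and 15 from it onward, 5′ to 3′, from RefSeq (GRCm38.p6, the same assembly as mm10). Capitals mark a C followed by at least 4 pyrimidines (letters CYYYY, Y being C or T, on the transcript strand) that begins within 10 bases of the start, with the rest of its run. The first 4 have such a C on the first base itself, the next 4 have one nearby, and the last 4 have none in that range. For Rpl11 the RefSeq start lies 22 bases from the gene's start in the deposited table, which is beyond that range. Of these 12, Rpl22l1 and Rpl12 had the largest differences described below, and Rpl11, Rpl36al and Rpl7l1 were among the smallest.
Rps6 (chr4:86857353-86857382, minus): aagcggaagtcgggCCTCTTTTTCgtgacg
Rplp2 (chr7:141447636-141447665, plus): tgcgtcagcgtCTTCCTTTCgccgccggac
Rpl14 (chr9:120571502-120571531, plus): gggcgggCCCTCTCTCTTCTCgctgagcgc
Rpl28 (chr7:4792950-4792979, plus): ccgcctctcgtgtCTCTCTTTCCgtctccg
Rpl12 (chr2:32961697-32961726, plus): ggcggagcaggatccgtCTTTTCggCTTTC
Rpl22l1 (chr3:28805493-28805522, plus): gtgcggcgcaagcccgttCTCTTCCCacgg
Rps24 (chr14:24490663-24490692, plus): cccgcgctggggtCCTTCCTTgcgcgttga
Rpl13a (chr7:45128731-45128760, minus): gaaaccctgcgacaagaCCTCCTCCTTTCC
Rpl5 (chr5:107900513-107900542, plus): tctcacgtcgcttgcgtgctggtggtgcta
Rpl11 (chr4:136053379-136053408, minus): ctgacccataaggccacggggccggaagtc
Rpl36al (chr12:69184053-69184082, minus): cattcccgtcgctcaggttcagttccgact
Rpl7l1 (chr17:46782642-46782671, minus): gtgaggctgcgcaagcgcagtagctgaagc

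A RefSeq start was found for 64 of the 85 members. The letters CYYYY began exactly at the start in 12 of the 64 (18.8%), and in 2.36% of 10521 other tested genes. They began within 10 bases of it in 36 members (56.2%), and in 32.1% of the other genes. The tested members with and without such a run nearby had the same median difference between genotypes to 2 decimals, 0.51 log2 units over 35 members and 0.51 over 27. Annotated starts can lie some bases away from the start used in a tissue, and a match is a description of letters. For some members the RefSeq start also differed from the gene's start in the deposited table, by as much as 1020 bases for Rps4x.

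The libraries held between 1441152 and 1714770 reads assigned to genes. The targeted gene Tfam had 28.1, 46.1 and 47.6 normalized reads in Tfam cKO and 61.3, 72.1 and 78.6 in Control (log2 fold change -0.81 ± 0.21 SE, limma adjusted p = 0.0246). Its groups did not overlap, but the call ended without Tfam cKO replicate 1 (0.0755), Control replicate 2 (0.0687) or Control replicate 3 (0.107), and with DESeq2 (0.0553).

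Ribosomal protein mRNAs took a larger part of the reads in Tfam cKO bone. They made up 6.06%, 6.34% and 7.02% of all reads in the 3 Tfam cKO libraries, against 4.41%, 4.49% and 4.52% in the 3 Control libraries. Every Tfam cKO library lay above every Control library. The mean was 6.47% ± 0.50 in Tfam cKO and 4.47% ± 0.05 in Control (SD, n = 3 each), a ratio of 1.45, and no test was run on this sum. The spread was wider in Tfam cKO, where replicate 3 stood highest.

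**Figure D1:**
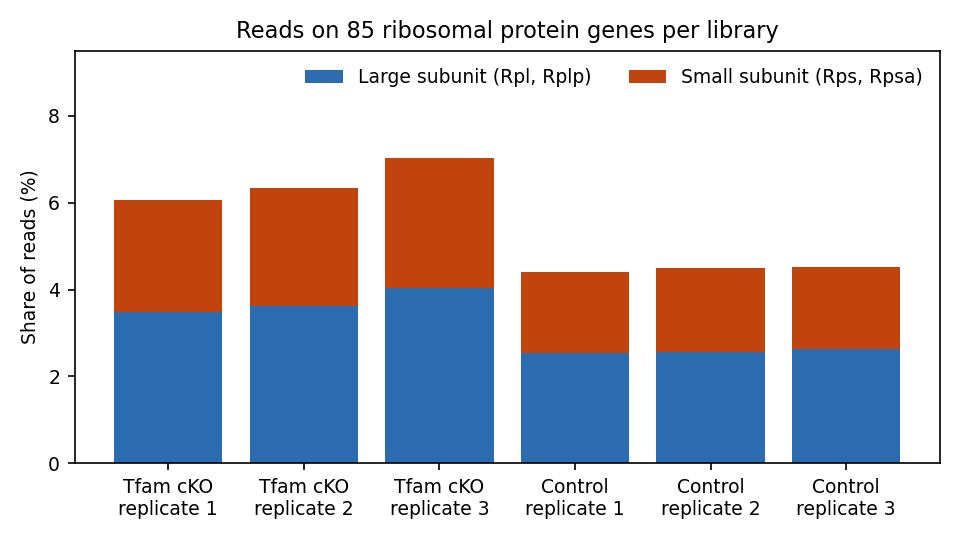
Share of each library's reads (percent, vertical axis) that fell on the 85 ribosomal protein genes, split into large subunit (blue) and small subunit (orange) genes, 1 bar per library. The 3 Tfam cKO bars reach 6.06% to 7.02% and the 3 Control bars 4.41% to 4.52%.

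Both subunits contributed alike. Small subunit genes took 2.76% ± 0.21 of the reads in Tfam cKO and 1.90% ± 0.03 in Control, a ratio of 1.45 (SD, n = 3 each). Large subunit genes took 3.71% ± 0.29 in Tfam cKO and 2.58% ± 0.04 in Control, a ratio of 1.44. Small subunit genes held 42.5% to 42.9% of the family's reads in Tfam cKO libraries and 42.0% to 43.0% in Control libraries, so the ranges overlap. The pair of type I collagen genes held 4.71% ± 0.21 of the reads in Tfam cKO and 10.3% ± 0.94 in Control. Counted outside the 2 type I collagen genes, ribosomal proteins took 6.79% ± 0.53 of the reads in Tfam cKO and 4.99% ± 0.05 in Control, a ratio of 1.36.

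Gene by gene, nearly the whole family was higher in Tfam cKO. Of the 85 members, 83 passed the filter of a mean of at least 1 normalized read, and 69 of these 83 rose and 0 fell in limma's test at a Benjamini-Hochberg adjusted p under 0.05 over all 14438 genes. Over all genes, 6.42% rose and 6.01% fell, as 927 and 868 genes, or 741 and 1178 when libraries were scaled to their totals without type I collagen, where 64 members rose. The median log2 fold change was 0.51 over the 83 members, a 1.42-fold difference, and 0.01 over all genes tested. In the small subunit 30 of 33 members rose, with a median of 0.51, and in the large subunit 39 of 50, with a median of 0.50. All 3 Tfam cKO libraries lay above all 3 Control libraries for 75 of the 83 members, as for 16.6% of all genes, and no member showed the opposite. At a q-value under 0.05 the authors' deposited table called 62 members, all higher and all among the 69, against 5.50% of the same 14438 genes higher. In bulk RNA, a change in the number of cells of a type and a change in RNA per cell cannot be told apart.

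**Figure D2:**
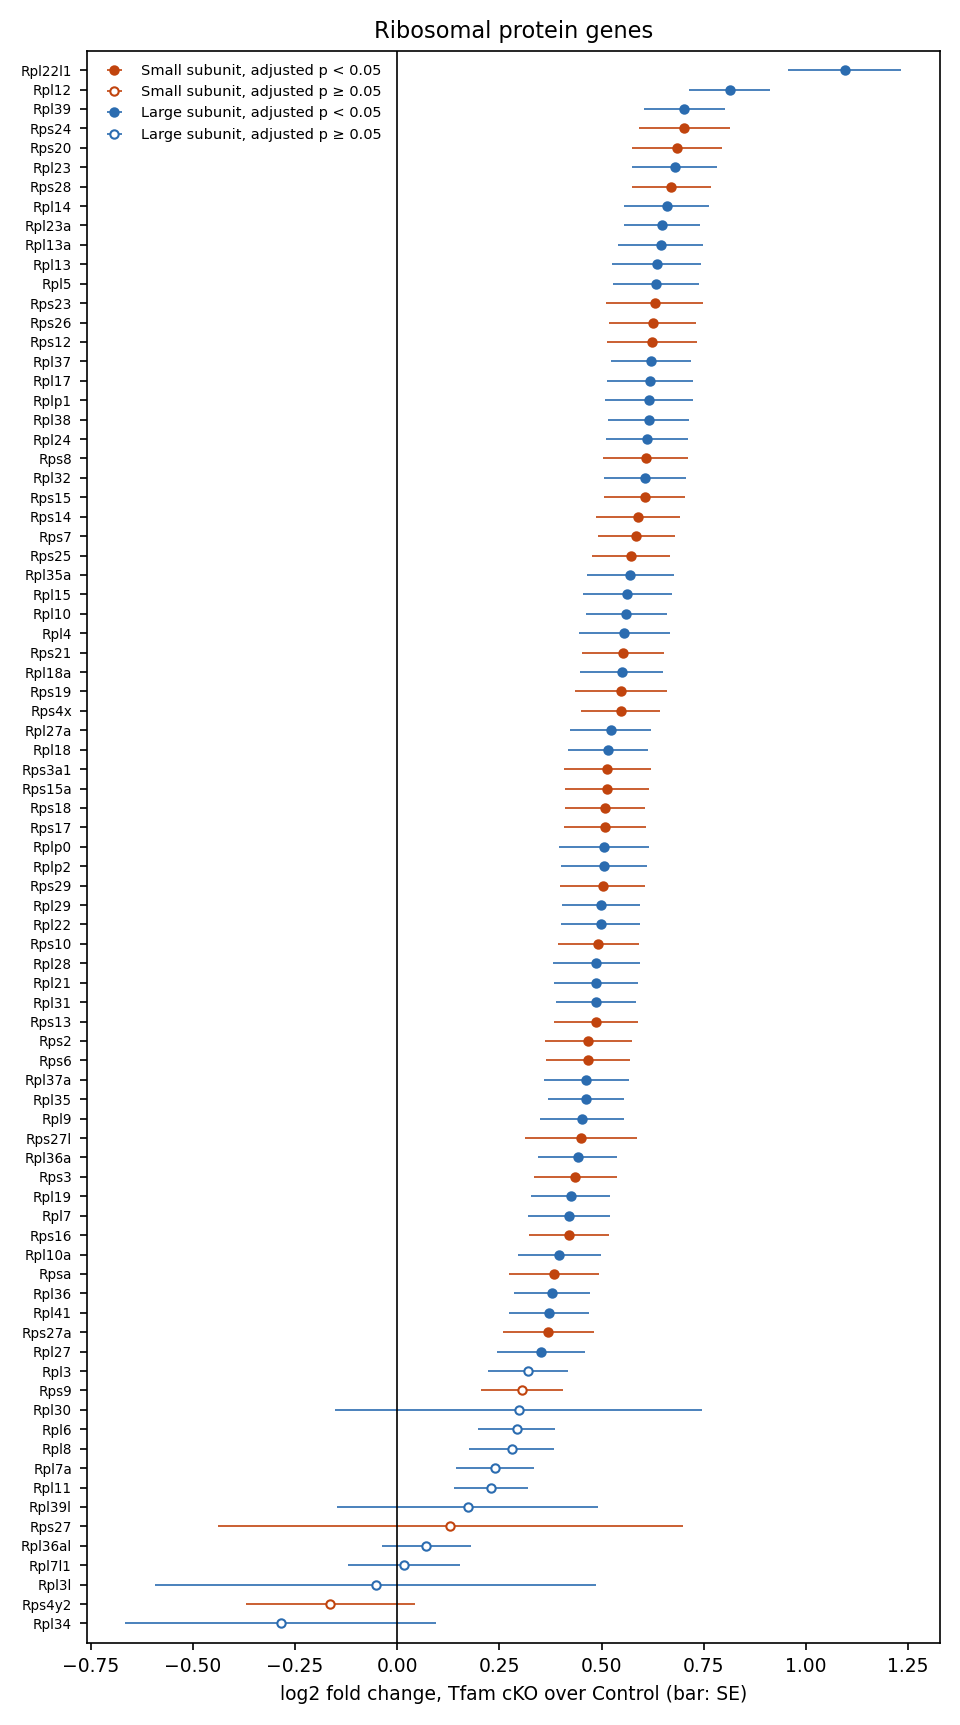
Log2 fold change of 81 of the 83 tested ribosomal protein genes, Tfam cKO over Control (horizontal axis, log2 units), with its SE as a bar. Filled points passed an adjusted p of 0.05, orange points are small subunit and blue points large subunit genes; the 67 filled points lie between 0.35 and 1.09.

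The rise was similar in size across members. Of the 83 members tested, 68 lay within 0.2 log2 units of the family median, and the middle 50% of the log2 fold changes ran between 0.42 and 0.61. Over the 77 members with a mean of at least 100 normalized reads, the SD of the log2 fold changes was 0.15, and the median SE of a single one was 0.10. That SE also holds differences between libraries that the members share, so it is not the noise to be expected between members. Across these 77 genes, the log2 fold change had a Spearman's rho of 0.0049 with the gene's mean level and of -0.17 with its exon length. These are correlations across genes of the same 6 libraries, and genes are not independent replicates.

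The family's level also differed between libraries of the same group. The family's median deviation from each gene's own mean was 0.17, 0.21 and 0.39 log2 units in the Tfam cKO libraries and -0.26, -0.21 and -0.30 in the Control libraries. Tfam cKO replicate 3 held the highest value of 74 of the 83 tested members. That count was not made over all genes, so it is not read as a trait of the family. The median coefficient of variation over the 77 well measured members was 8.54% within Tfam cKO and 3.76% within Control. Without Tfam cKO replicate 3, 61 members rose, and their number was between 52 and 68 without any 1 of the 6 libraries, lowest without Control replicate 1.

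Among small subunit proteins, Rps24, mutated in human Diamond-Blackfan anaemia, had 1314, 1302 and 1578 normalized reads in Tfam cKO and 812, 949.8 and 812 in Control (log2 fold change 0.70 ± 0.11 SE, limma adjusted p = 0.00167). Rps28, a small protein near the exit of the mRNA channel, had 517, 525 and 596 normalized reads in Tfam cKO and 334, 347 and 345 in Control (0.67 ± 0.10, adjusted p = 9.45e-04). For both genes every Tfam cKO value lay above every Control value. Rps20 (0.69), Rps15 (0.61), Rps7 (0.59) and Rps25 (0.57) rose as well, each at an adjusted p between 0.00182 and 0.00216.

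Rps6, the target of the S6 kinases, had 1829.8, 1956 and 2149.99 normalized reads in Tfam cKO and 1430.3, 1505 and 1351 in Control (0.47 ± 0.10, adjusted p = 0.0105). Its groups did not overlap, but its call ended without Control replicate 1 (0.0560) or Control replicate 3 (0.0569), and after quantile normalization (adjusted p = 0.0519), where the log2 fold change was 0.30. Rps19, the gene most often mutated in human Diamond-Blackfan anaemia, had 872, 845 and 1032 normalized reads in Tfam cKO and 666, 659 and 554 in Control (0.55 ± 0.11, adjusted p = 0.00719). Rps14, whose loss marks the human 5q- syndrome, had 1792, 1845 and 2062 normalized reads in Tfam cKO and 1294, 1317 and 1173 in Control (0.59 ± 0.10, adjusted p = 0.00279). Neither gene's groups overlapped. Rps12, one of the 3 members with the most reads per kilobase, had 1868, 1979.8 and 2328 normalized reads in Tfam cKO and 1282, 1418 and 1296 in Control (0.62 ± 0.11, adjusted p = 0.00308). Rpsa, also known as the laminin receptor, had 2705, 3077 and 3321 normalized reads in Tfam cKO and 2312, 2395 and 2248 in Control (0.38 ± 0.11, adjusted p = 0.0397). The call of Rpsa was lost when any single library but Tfam cKO replicate 1 was left out, at an adjusted p between 0.0801 and 0.146. It also ended under other alternatives: quantile normalization (log2 fold change 0.085, adjusted p = 0.641), no filter (0.0620), scaling to totals without type I collagen (0.0713), the length trend removed (0.0744, or 0.0757 when learned outside the family), a replicate block (0.0926) and the q-value of the authors' deposited table (0.0560).

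In the large subunit, Rpl12, at the base of the stalk that recruits elongation factors, had 1520.3, 1524 and 1767 normalized reads in Tfam cKO and 930.1, 905 and 895 in Control (0.81 ± 0.10, adjusted p = 3.31e-04). It had the largest log2 fold change of the core proteins. Of the stalk proteins, Rplp0, often used as a reference gene in quantitative PCR, had 3629, 3769 and 4262 normalized reads in Tfam cKO and 2661, 2739 and 2792 in Control (0.51 ± 0.11, adjusted p = 0.00967). Its call ended without Control replicate 1 (adjusted p = 0.0687). Its partners rose too, with 1716, 1862 and 2169 normalized reads in Tfam cKO and 1245, 1242 and 1244 in Control for Rplp1 (0.62 ± 0.11, adjusted p = 0.00286). Rplp2 had 651, 732 and 829.5 normalized reads in Tfam cKO and 502, 535 and 514 in Control (0.51 ± 0.11, adjusted p = 0.00800). After quantile normalization Rplp0 lost its call, with a log2 fold change of 0.18 (adjusted p = 0.264).

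Rpl39, a short protein that lines the exit tunnel, had 748, 745 and 869.7 normalized reads in Tfam cKO and 484, 505 and 459 in Control (0.70 ± 0.10, adjusted p = 8.59e-04). Rpl38, which in mice is required for the translation of certain Hox mRNAs and for normal patterning of the axial skeleton, had 432, 397 and 448 normalized reads in Tfam cKO and 267, 295 and 269.6 in Control (0.62 ± 0.10, adjusted p = 0.00181). Again the groups did not overlap. Rpl23a (0.65), Rpl23 (0.68), Rpl14 (0.66), Rpl37 (0.62), Rpl13a (0.64), Rpl24 (0.61) and Rpl32 (0.61) rose at an adjusted p between 9.37e-04 and 0.00224. Per kilobase of exon, the highest levels over all 6 libraries were 3375 normalized reads for Rplp1, 3331 for Rpl41 and 3273 for Rps12. Rpl41, a peptide hardly longer than a helix, had 1607, 1622 and 1836 normalized reads in Tfam cKO and 1309, 1319.8 and 1280.2 in Control (0.37 ± 0.10, adjusted p = 0.0262). Its call ended without Tfam cKO replicate 3 (adjusted p = 0.0758) or Control replicate 1 (0.103), 2 (0.0648) or 3 (0.0913). It also ended after quantile normalization (log2 fold change 0.19, adjusted p = 0.201), with scaling to totals without type I collagen (0.0536), with the length trend removed (0.120, or 0.112 when learned outside the family), with a replicate block (0.0713) and by the q-value of the authors' deposited table (0.0536).

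Rpl5 and Rpl11 form a particle with 5S rRNA and, when ribosome assembly fails, can bind MDM2 and release p53. Rpl5 had 2209.6, 2076 and 2540.4 normalized reads in Tfam cKO and 1455, 1460.3 and 1465 in Control (0.63 ± 0.11, adjusted p = 0.00217). Rpl11 had 1032, 1038 and 1119 normalized reads in Tfam cKO and 886, 919 and 914 in Control (0.23 ± 0.09, adjusted p = 0.124). The 3 Tfam cKO values of Rpl11 lay above the 3 Control values, but the difference did not pass the threshold. Rpl5 shares 964 of its 2019 exon bases with Fam69a on the opposite strand, a gene with a mean of 28.8 normalized reads.

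Differences between members were tested by the same limma fit after each library was centred on the family's median, a scale chosen after the values were seen. Relative to the family, 2 members were higher and 6 lower in Tfam cKO, on a scale where 1.67% of all genes were higher and 43.3% lower. The adjustment ran over all 14438 genes, and the many lower genes outside the family make its threshold easier to pass. Before adjustment, limma p-values of these members ran from 8.47e-04 for Rpl22l1 to 0.0204 for Rpl8. An adjustment over the members alone was not run, so these calls are weak. Rpl22l1 (0.58 ± 0.13, adjusted p = 0.00450) and Rpl12 (0.30 ± 0.09, adjusted p = 0.0170) were above the family. Below it were 3 copies or relatives of core genes, Rps4y2 (-0.68 ± 0.21, adjusted p = 0.0203), Rpl7l1 (-0.50 ± 0.14, adjusted p = 0.0126) and Rpl36al (-0.45 ± 0.12, adjusted p = 0.0105). Also below it were 3 core large subunit proteins, Rpl11 (-0.29 ± 0.09, adjusted p = 0.0216), Rpl7a (-0.28 ± 0.09, adjusted p = 0.0244) and Rpl8 (-0.24 ± 0.09, adjusted p = 0.0462). Rpl22l1 and Rpl36al passed without each library in turn, at an adjusted p of at most 0.0254 for Rpl22l1 and 0.0432 for Rpl36al. The other 6 each lost the call without at least 1 library, with a highest adjusted p of 0.0631 for Rpl12, 0.0655 for Rpl7l1, 0.0805 for Rps4y2, 0.0782 for Rpl11, 0.0929 for Rpl7a and 0.124 for Rpl8. Rpl12 lost it without Control replicate 2 and Rpl7l1 without Control replicate 3, and Rpl8 kept it without Tfam cKO replicate 2 alone. Rpl11 lost it without Control replicate 1 or 3 or Tfam cKO replicate 3, and Rpl7a and Rps4y2 each without 3 or more libraries, Control replicates 1 and 3 and Tfam cKO replicate 2 among them.

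Rpl22l1 encodes a paralog of Rpl22, and in mice the Rpl22 protein is known to hold the Rpl22l1 mRNA down. Rpl22l1 had 223, 218 and 252 normalized reads in Tfam cKO and 111, 126 and 88.5 in Control (1.09 ± 0.14, adjusted p = 4.23e-04). It had the largest fold change of the family, 2.14-fold. Rpl22 had 485, 544 and 539.6 normalized reads in Tfam cKO and 373, 388 and 349 in Control (0.50 ± 0.10, adjusted p = 0.00564). Both genes rose, and neither gene's groups overlapped. Per kilobase of exon, Rpl22l1 stood at 197%, 172% and 199.6% in Tfam cKO and at 128%, 138% and 108% in Control of the level of Rpl22, with no overlap.

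Ratios of this kind could be formed for 7 pairs of a paralog and its core partner. For Rpl22l1 against Rpl22, p was 0.1 in the exact permutation test (two-sided), the smallest that 3 against 3 libraries allow, and 0.14 after Benjamini-Hochberg adjustment over the 7 pairs. The same p and adjusted p were reached by 4 other pairs, all in the opposite direction. Rpl36al, a copy of Rpl36a on another chromosome, stood at 39.2% ± 3.76 in Tfam cKO and at 50.7% ± 5.29 in Control (SD, n = 3 each). Rpl7l1, a relative of Rpl7, stood at 2.73% ± 0.258 in Tfam cKO and at 3.62% ± 0.414 in Control. In both pairs the 3 Tfam cKO ratios lay below the 3 Control ratios. Rps4y2, which RefSeq names Rps4l and classes as a transcribed pseudogene, stood at 1.27% ± 0.186 in Tfam cKO and at 2.07% ± 0.239 in Control relative to Rps4x. Rpl39l, a paralog best known from testis, stood at 0.839% ± 0.175 in Tfam cKO and at 1.20% ± 0.254 in Control relative to Rpl39, from 76 reads in all. The ratio of Rpl3l to Rpl3 overlapped between the groups (exact permutation p = 1), and that of Rps27l to Rps27 is not read, since Rps27 had 16 reads in all.

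**Figure D3:**
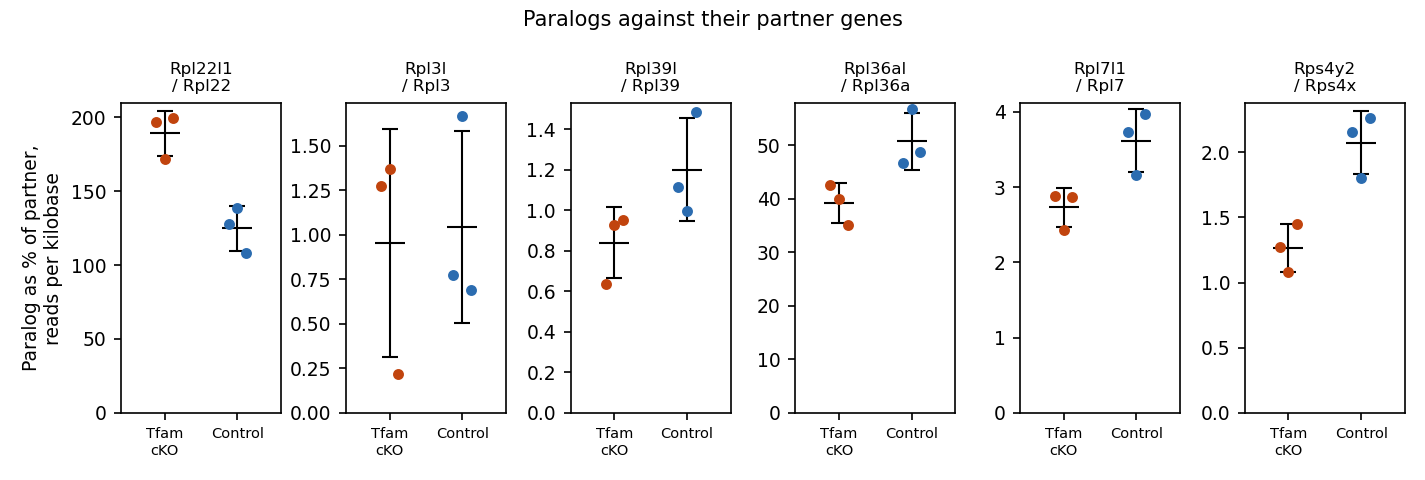
Level of each paralog as a percent of its partner gene, in reads per kilobase of exon (vertical axes, each from 0 and with its own scale), for 3 Tfam cKO libraries (left) and 3 Control libraries (right), with mean and SD. Rpl22l1 is higher against Rpl22 in every Tfam cKO library, 4 pairs are lower in every Tfam cKO library, and Rpl3l overlaps.

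In these 4 pairs the partner rose while the paralog did not pass the test. Rpl36al had 237, 238 and 227 normalized reads in Tfam cKO and 209.9, 251 and 209.9 in Control (0.07 ± 0.11, adjusted p = 0.723), and its partner Rpl36a rose (0.44, adjusted p = 0.00977). Rpl7l1 had 143, 119.6 and 163 normalized reads in Tfam cKO and 144, 126 and 149 in Control (0.02 ± 0.14, adjusted p = 0.956), and its partner Rpl7 rose (0.42, adjusted p = 0.0161). The values of Rpl36al and Rpl7l1 overlapped between the groups. The call of Rpl7 ended without Control replicate 1 (0.0770) or Control replicate 3 (0.0677). It also ended after quantile normalization (log2 fold change 0.24, adjusted p = 0.127), with the length trend removed (0.0550, or 0.0532 when learned outside the family) and with a replicate block (0.0527). Rps4y2 (-0.16, adjusted p = 0.660) and Rpl39l (0.17, adjusted p = 0.778) did not pass, and Rps4x, the partner of Rps4y2, rose (0.55, adjusted p = 0.00308).

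Rpl3l replaces Rpl3 in striated muscle. It had 27.1, 32.01 and 5.29 normalized reads in Tfam cKO and 14.1, 29.97 and 12.9 in Control, and did not pass (-0.05 ± 0.54, adjusted p = 0.963). The summed level of 10 skeletal muscle markers also varied between libraries, at 11674, 5508 and 1448 in Tfam cKO and 1319, 7985 and 3333 in Control. Its part in the Rpl3l values was not tested. Rpl3 itself had 1816, 1992 and 2057 normalized reads in Tfam cKO and 1553, 1536 and 1600.5 in Control (0.32 ± 0.10, adjusted p = 0.0508), just outside the threshold. It passed with edgeR (adjusted p = 0.0328), DESeq2 (0.0125) and some other scalings and filters. It did not pass by the q-value of the authors' deposited table (0.117), after quantile normalization (0.282) or without any 1 library (0.0538 to 0.169). Rps27l, a target of p53, had 149, 135 and 149 normalized reads in Tfam cKO and 88.4, 121 and 109 in Control (0.45 ± 0.14, adjusted p = 0.0493), just inside it. That call was lost without each library except Control replicate 2, at an adjusted p between 0.0582 and 0.197, with DESeq2 (0.179), by the q-value of the authors' deposited table (0.122) and under several other scalings and filters.

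A few members could not be measured from this table. Rpl26 had no read in any library, and 3 other core genes were almost empty. Rps27 averaged 2.72 normalized reads over the 6 libraries, Rpl30 4.56 and Rpl34 8.39, where 77 of the family averaged at least 100. In the table's exon blocks, each of these 4 genes shares most of its bases with a second row on the same strand: Rpl26 520 of 543 bases with Gm15772, Rpl30 476 of 626 with Gm12191, Rpl34 401 of 597 with Rpl34-ps1 and Rps27 345 of 575 with Gm9846. Those 4 second rows were listed at 0 in every library. Among the other 81 members, Rpl13a shared 1 base in this way and the rest none, and 1 of the 81 had a mean under 10. Over the whole table, 567 of 577 genes (98.3%) with at least 50% of their exon bases shared on the same strand had a mean under 10 normalized reads, against 50.8% of the other 22843 genes. The sources used here do not say how a read on 2 overlapping genes was counted, and its part in these low values was not tested. No level is read from these 4 genes. Rpl10l, an intronless copy known from testis, also had 0 reads.

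Processed copies of these genes are common in the mouse genome and can share reads with them. In GENCODE M21 transcripts, a median of 55.5% of the 50-base windows of a member also occurred in another gene's transcript (84 members matched). Matches on either strand and to any other gene were counted, so this share is not limited to processed copies. The median log2 fold change was 0.50 over the 47 tested members with at least 50% of windows shared and 0.55 over the 35 with less. The 6 pseudogene rows of the family in the table had means between 0 and 18.4 normalized reads.

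Ribosomal protein genes are short, with a median of 710 exon bases against 2867 for all genes tested, and genes of other families at that length were set beside them. Among genes with a mean of at least 100 normalized reads and at most 1000 exon bases, 54 of 59 members rose and 0 fell, and their median was 0.55 log2 units. Of 171 other genes in the same range, 19 rose and 7 fell, with a median of 0.10. Among the longer genes at that level, 15 of 18 members rose and 0 fell, with a median of 0.50. Of 3411 other genes in that range, 406 rose and 374 fell, with a median of 0.02. When each library's trend with length was learned from genes outside the family and removed, an alternative chosen after seeing the data, 58 members rose and 0 fell, with a median of 0.43, where 5.98% of all genes rose.

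**Figure D4:**
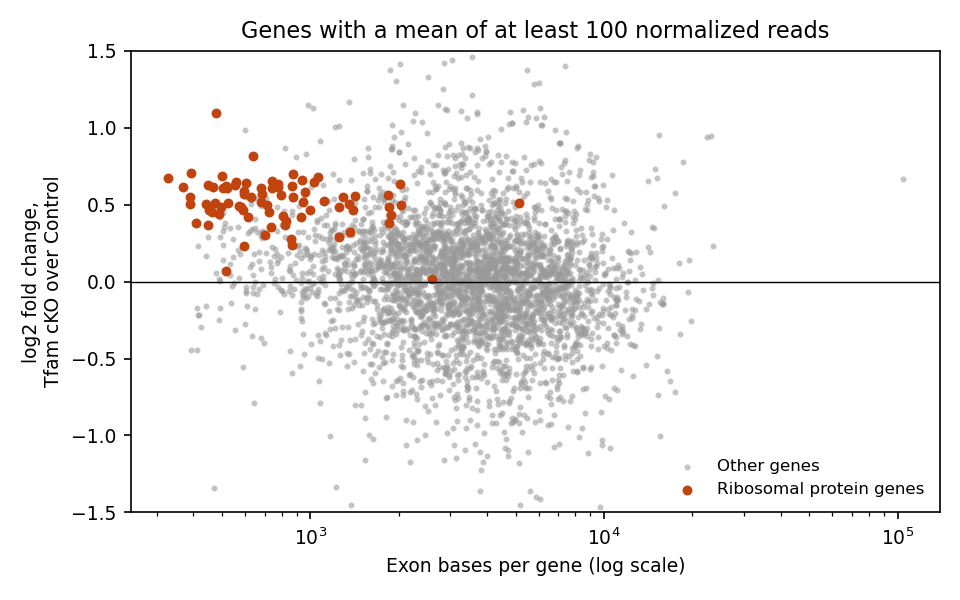
Log2 fold change, Tfam cKO over Control (vertical axis, log2 units), against exon bases per gene (horizontal log axis) for 3659 genes with a mean of at least 100 normalized reads; 25 genes lie outside the plotted range of 1.5 in either direction. The 77 ribosomal protein genes (orange) sit in a band above 0, and 171 other genes of at most 1000 bases had a median of 0.10.

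Genes that work with the family were compared by lists. Fau, a ribosomal protein made as a fusion with a ubiquitin-like domain, and Gnb2l1, the small subunit scaffold RACK1, are parts of the ribosome that the choice by symbol misses. Both rose. Gnb2l1 averaged 2077 ± 178 normalized reads in Tfam cKO and 1311 ± 34.5 in Control (SD, n = 3 each), a log2 fold change of 0.66 ± 0.10 SE (limma adjusted p = 0.00139). Fau averaged 772 ± 95.5 normalized reads in Tfam cKO and 559 ± 36.9 in Control (0.46 ± 0.11, adjusted p = 0.0161). Its call ended without Tfam cKO replicate 3 (adjusted p = 0.0652), Control replicate 1 (adjusted p = 0.0600) or Control replicate 3 (adjusted p = 0.0780), and after quantile normalization (adjusted p = 0.0531).

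Other mRNAs of the TOP class, most of them for elongation and initiation factors, rose in part. The median log2 fold change of 16 tested was 0.41, and 9 rose (56.2%, against 6.42% of all genes) and 0 fell. Tpt1, the translationally controlled tumour protein, averaged 4557 ± 322 normalized reads in Tfam cKO and 2597 ± 189 in Control (0.81 ± 0.11, adjusted p = 7.85e-04). Eef1b2, of the exchange factor for elongation factor 1A, averaged 1177 ± 82.3 normalized reads in Tfam cKO and 746 ± 34.1 in Control (0.66 ± 0.10, adjusted p = 0.00107). Eef2 (0.58, adjusted p = 0.00511) and Eef1a1 (0.52, adjusted p = 0.0349), both elongation factors, rose. Pabpc1, the poly(A)-binding protein (0.16, adjusted p = 0.420), did not pass. Eef2, Eef1a1 and Pabpc1 were picked with their values in view. The call of Eef1a1 ended with the length trend learned outside the family (log2 fold change 0.46, adjusted p = 0.0813). Its call under the other alternatives is not reported here. The 9 became 4 without Control replicate 1 and 6 after quantile normalization.

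**Figure D5:**
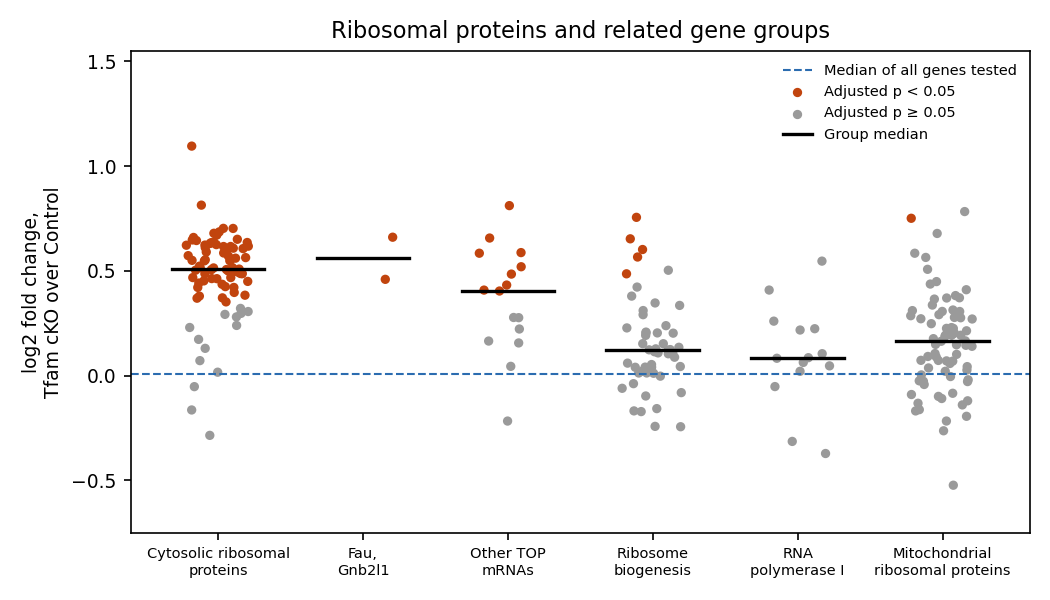
Log2 fold change, Tfam cKO over Control (vertical axis, log2 units), of each tested gene in 6 groups; orange points passed an adjusted p of 0.05, black lines are group medians and the dashed line is the median of all genes tested. Medians were 0.51 for cytosolic ribosomal proteins, 0.56 for Fau and Gnb2l1, 0.41 for other TOP mRNAs, 0.12 for ribosome biogenesis, 0.08 for RNA polymerase I and 0.16 for mitochondrial ribosomal proteins.

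Of 51 genes of rRNA processing and subunit assembly, 5 rose (9.80%, against 6.42% of all genes) and 0 fell, with a median of 0.12. Riok2, a kinase that completes the small subunit, averaged 64.9 ± 6.16 normalized reads in Tfam cKO and 38.6 ± 8.94 in Control (0.76 ± 0.19, adjusted p = 0.0219). Nip7, a pre-rRNA processing factor, averaged 69.1 ± 4.32 normalized reads in Tfam cKO and 45.2 ± 3.28 in Control (0.60 ± 0.15, adjusted p = 0.0234). With DESeq2 the 5 became 0, as they did without Control replicate 1 or Tfam cKO replicate 3. Leaving out Control replicate 3 gave 1, leaving out Tfam cKO replicate 1 gave 2, and 3 were left when libraries were scaled to their totals without type I collagen. Among 14 genes of RNA polymerase I and its factors 0 passed, with a median of 0.08, and Rrn3 (0.41, adjusted p = 0.0719) and Cd3eap (0.55, adjusted p = 0.167) had the smallest p-values. Of 76 mitochondrial ribosomal proteins 1 rose and 0 fell, with a median of 0.16, and 0 rose with DESeq2 or without any 1 library except Control replicate 2.

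Of 16 genes that control ribosomal protein mRNAs and translation through mTORC1 and MYC, 2 rose (12.5%, against 6.42% of all genes) and 0 fell, and with so few genes this count is near the share over all genes. Eif4ebp1, the repressor of cap-dependent translation that mTORC1 switches off, averaged 154 ± 3.62 normalized reads in Tfam cKO and 69.3 ± 6.97 in Control (1.15 ± 0.13, adjusted p = 1.85e-04). Sesn2, an inhibitor of mTORC1, averaged 57.0 ± 6.96 normalized reads in Tfam cKO and 28.5 ± 5.09 in Control (0.98 ± 0.20, adjusted p = 0.00642). The median of the 16 was -0.11, or -0.02 without Control replicate 1, and their mean was 0.05, of the opposite sign. Mtor (-0.33, adjusted p = 0.103), Larp1 (0.25, adjusted p = 0.111) and Myc (0.02, adjusted p = 0.955) did not pass. Of 8 listed genes, namely p53, regulators of it and its targets, 4 rose (50.0%, against 6.42% of all genes) and 0 fell. The list does not single out the link of Rpl5 and Rpl11 to p53. Cdkn1a, a cell cycle inhibitor, averaged 382 ± 15.8 normalized reads in Tfam cKO and 143 ± 22.6 in Control (1.42 ± 0.12, adjusted p = 2.87e-05). Bax, which promotes apoptosis, averaged 112 ± 11.9 normalized reads in Tfam cKO and 60.8 ± 5.42 in Control (0.86 ± 0.14, adjusted p = 0.00209). Mdm2 (0.08, adjusted p = 0.786) and Trp53 (0.04, adjusted p = 0.872) did not pass, nor did Mdm4 (-0.46, adjusted p = 0.0634), an inhibitor of p53 that passed as lower without Control replicate 2 and under 2 other alternatives. Mtor, Larp1, Myc, Mdm2, Trp53 and Mdm4 were picked with their values in view.

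Markers of several cell types differed between the same libraries. All 10 B lineage markers were lower in Tfam cKO, with a summed level of 136 to 244 normalized reads in Tfam cKO and 709 to 987 in Control. For 10 neutrophil markers (3 lower) the sums were 6519 to 10104 in Tfam cKO and 9685 to 12199 in Control. For 6 megakaryocyte markers (2 lower) they were 358 to 631 in Tfam cKO and 527 to 947 in Control. Of 5 erythroid markers tested 3 were lower, with sums of 3201 to 5336 in Tfam cKO and 5180.4 to 7436 in Control, and Hba-a1 and Hba-a2 were listed at 0. Markers of other cells went the other way or both ways. Of 8 macrophage markers 4 were higher and 1 lower (1437 to 1691 in Tfam cKO and 1162 to 1292 in Control), and of 8 osteoclast markers 1 was higher (15085 to 19219 in Tfam cKO and 12337 to 13728 in Control). Of 10 osteoblast markers, which hold type I collagen, 3 were higher and 5 lower (95699 to 109363 in Tfam cKO and 167783 to 204997 in Control). Of 10 chondrocyte markers 5 were higher and 1 lower (2754 to 4229.7 in Tfam cKO and 2912 to 3496 in Control). Of 7 endothelial markers 1 was higher, of 10 skeletal muscle markers 0 passed, and of 4 adipocyte markers tested 1 was higher and 2 lower. The part of these differences in the ribosomal protein values was not tested.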

How the data were processed

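Directional poly(A) libraries took 50 ng of RNA each, whose integrity number exceeded 6.7, per the labels' protocols. TopHat, Cufflinks and mm10 appear in the submitters' processing notes, without roles, and no source names the counting program or its use of strand. The authors deposited a signal per gene and library, namely read counts divided by 1 size factor per library. In each library 100% of values were whole multiples of 1 read's value (tolerance 0.001). Their q-value was used only where the authors' deposited table is named.

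limma 3.58.1 (R 4.3.3), with a mean-variance trend, compared genotypes on log2(normalized reads + 1) over 14438 genes with a mean of at least 1, with Benjamini-Hochberg adjustment over all of them. The log2(value + 1) scale understates the change of low genes. Alternatives were edgeR 4.0.16 and DESeq2 1.42.0 on recovered reads, other scalings, filters and pseudocounts, removal of length trends, a replicate block and leaving out each library. The scripts were tested on simulated data. Named by rule were the 20 members with the smallest p, the 4 largest rises and falls, the 3 highest and lowest per kilobase, paralog pairs, 9 members named in any case (Rpl5, Rpl11, Rps6, Rps14, Rps19, Rplp0, Rplp1, Rplp2, Rpsa), Tfam and the 2 smallest p of each pathway list. Some genes that fall under this rule are not reported here, and 2 members are not drawn in the plot of members. Rpl7a, Rpl8, Rpl26 and the members printed only for their start sequence were picked with their values in view. The members and lists were chosen with earlier results of these data known. The planned comparison of paralog proteins was not run.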

Additional observations from a re-analysis of the deposited data

How the results depend on the processing

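The median log2 fold change of the family was positive, and 0 members fell, under every alternative run. The number of members that rose was within 1.5 times the 69 except after quantile normalization, with 45 and a median of 0.35. Quantile normalization also ended the call of Fau (adjusted p = 0.0531), and gave a median of 0.40 for Fau and Gnb2l1 and 0.26 for other TOP mRNAs. Without any 1 library, between 52 and 68 members rose, the median was 0.46 to 0.55, and the ratio of read shares was 1.38 to 1.49. Of the 69, 50 passed without each library in turn and 43 under every alternative. The same counts were not made over all genes, so they are not read as a trait of the family. Without any 1 library, all genes called higher numbered 545 to 836 and all genes called lower 348 to 982, against 927 and 868, and DESeq2 called 606 higher and 543 lower.

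The 3 replicate numbers did not pair the samples (correlations of same-numbered deviations -0.23, 0.0096 and 0.087), and not every library correlated best with its own number. With the replicate number as a block, 60 members, 2 ribosome biogenesis genes and 0 mitochondrial ribosomal proteins rose, and 687 of all genes were higher and 603 lower. Mdm4 was the 1 p53 pathway gene called lower scaled without type I collagen or with the length trend learned outside the family.

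Of 897 recomputed values for 45 named members, 829 left call and direction as they were. The sign turned for members that never passed. Rpl3l was 0.010 at pseudocount 5, 0.18 with edgeR, 0.17 with DESeq2 and 0.17 as a ratio of group means, and -0.49 to 0.71 without any 1 library. Rpl7l1 was -0.056 scaled without type I collagen, -0.043 with the length trend learned outside the family and -0.089 to 0.13 without any 1 library. Rpl36al was -0.0011 scaled without type I collagen, -0.0072 with the length trend removed and -0.0061 with the trend learned outside the family. Rps27 ran from -0.39 to 0.57 without any 1 library. The causes were not tested. Few reads limit Rpl3l, Rpl39l, Rps27, Rpl30 and Rpl34.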
